A study of Macaca mulatta with 39 samples.

Results

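TB38 is a culture of fibroblasts grown out of a teratoma that rhesus macaque embryonic stem cells (ESCs) of the female line 3806 had formed in an immune-deficient mouse. It was measured on 3 of the 39 arrays of the study, TB38a, TB38b and TB38c, and was set against the 6 arrays of its sister cultures TA38 and TC38, which came from the other teratomas of the same ESC line. The genes described are those for which TB38 lay outside the range of both sister cultures, with 1 probe set per gene symbol, the one with the highest mean over all arrays. The study compared ESCs with fibroblasts of the same genome and of the parents, and so also held the ESC lines C3106 (male) and C3806 (female), 5 teratoma cultures of line 3106 (TA31, TB31, TC31, TD31 and TE31) and skin fibroblasts of the parent monkeys (M032, M088 and M106p1), with 3 arrays of each. TB38, TA38 and TC38 received no treatment that the labels name and share the 3806 genome. Each is a single teratoma's outgrowth, so a difference of TB38 from its sisters is a difference of 1 culture. The labels call the 3 arrays of a culture biological triplicates without saying how they were grown apart, so the p-values below measure the spread between arrays of a culture.

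A teratoma is a benign growth in which pluripotent cells differentiate into a mixture of tissues of all germ layers, among them nerve, muscle, cartilage, epithelium and connective tissue. Cells that attach and spread from a piece of such a growth are mostly fibroblasts, which secrete collagens and proteoglycans, and their gene expression reflects the region and the lineage they came from as well as the culture. ARHGAP36 and SOX2 are the genes by which TB38 had been singled out. ARHGAP36 is a protein that binds and inhibits the catalytic subunit of protein kinase A and thereby activates GLI factors of the Hedgehog pathway, as shown in mouse and human cells, and SOX2 is an HMG-box transcription factor of pluripotent cells and of neural progenitors.

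All 3 cultures carried the fibroblast genes at high levels. COL1A1, a chain of type I collagen, averaged 13.08 ± 0.05 in TB38, 12.89 ± 0.15 in TA38 and 13.08 ± 0.09 in TC38 (log2 signal, SD, n = 3 arrays each), and LUM, the proteoglycan lumican, averaged 12.62 in TB38, 12.49 in TA38 and 12.58 in TC38. POU5F1, the defining gene of ESCs, lay between 4.84 and 4.96 in TB38, between 4.61 and 4.78 in TA38 and between 4.66 and 4.94 in TC38. PDGFRA and PDGFRB were not among the genes named on the array. Arrays of a culture correlated at 0.994 to 0.997 over genes, and TB38 arrays correlated with TC38 arrays at 0.979 to 0.989 and with TA38 arrays at 0.975 to 0.983. The gap between the 3′ and the 5′ probe sets of actin, which widens as RNA degrades, was 0.07 to 0.11 log2 units in TB38, 0.17 to 0.55 in TA38 and 0.05 to 0.21 in TC38. The same gap of GAPDH was 0.53 to 0.63 in TB38, 0.68 to 0.73 in TA38 and 0.63 to 0.73 in TC38. The part of these gaps, and of mouse cells that an outgrowth could hold, in the results was not tested. Among the other cultures, 3 arrays went against their labels: C3806c had POU5F1 at 4.84 and LUM at 12.56, against POU5F1 at 12.72 and 13.06 and LUM at 3.71 and 3.68 in C3806a and C3806b, while TB31c and M106p1f differed in the embryonic muscle myosin MYH3 from the other arrays of their culture, at 7.03 against 12.25 and 12.12 in TB31, and at 11.61 against 6.83 and 6.75 in M106p1. Of the tests of TB38, the fit of all 39 arrays includes these 3 arrays. The test of culture means includes TB31c and M106p1f, which enter the means of their cultures. Both are alternatives, and the text gives the levels of those cultures without the 3 arrays.

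TB38 had 36 genes higher and 34 genes lower than in both sister cultures. That was 0.255% and 0.241% of the 14132 genes measured, where a gene was called when limma's moderated test on the 9 arrays gave a Benjamini-Hochberg adjusted p under 0.05 against each sister, both log2 differences were at least 1 in the same direction, and all 3 TB38 arrays lay outside all 6 sister arrays. A difference of 1 on the log2 scale is a 2-fold difference in signal. With shares this small, most short gene lists can be expected to hold no call. Few or no calls in a list below therefore say little about its other members. The smaller of a gene's differences from TA38 and TC38 had a median of 1.27 over the genes called higher and reached 2.59. Over the genes called lower this smaller difference had a median of -1.18 and reached -2.38. By the same rule TA38 had 200 genes higher (1.42%) and 67 lower (0.474%) than its sisters, and TC38 had 23 higher (0.163%) and 61 lower (0.432%). Against TA38 alone, TB38 passed the adjusted p and the fold limit for 149 genes higher (1.05%) and 305 lower (2.16%), and against TC38 alone for 126 higher (0.892%) and 88 lower (0.623%). Without the fold limit TB38 had 386 genes higher (2.73%) and 948 lower (6.71%) than both sisters. On the same terms TA38 had 1042 higher (7.37%) and 626 lower (4.43%), and TC38 had 737 higher (5.22%) and 732 lower (5.18%). By range alone, all 3 TB38 arrays lay above all 6 sister arrays for 763 genes (5.4%) and below them for 1632 (11.5%). With culture means as the unit, TB38 was tested against the mean of its sisters. The spread then came from cultures, mostly the line 3106 teratoma and the skin cultures. No gene passed an adjusted p of 0.05 in limma, 812 genes (5.75%) had an unadjusted p under 0.05, and the lowest adjusted p was 0.0904. When each array was centred on its median the calls split into 52 higher and 26 lower, so 66.7% of calls were higher, against 51.4% with the values as deposited.

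**Figure D1:**
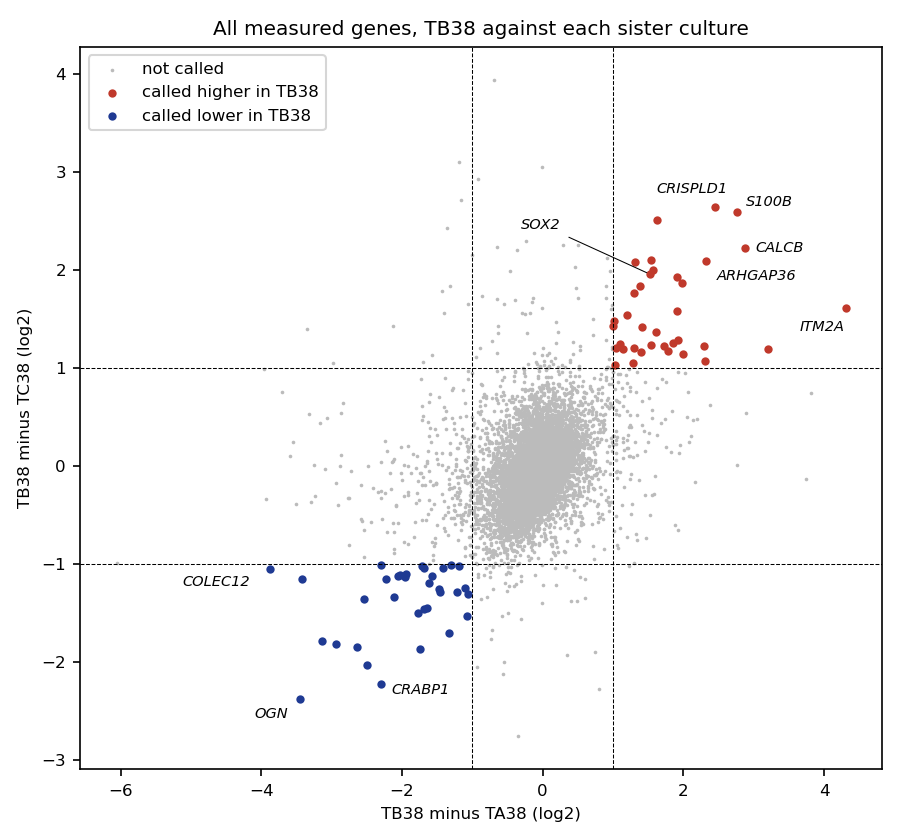
Each point is a gene, with the log2 difference TB38 minus TA38 on the horizontal axis and TB38 minus TC38 on the vertical axis. The 36 genes called higher lie in the upper right and the 34 called lower in the lower left, beyond the dashed lines at a log2 difference of 1 and -1. The axes share TB38, so the slope of the cloud is not a result.

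ARHGAP36, measured by 1 probe set and located on chromosome X, was higher in TB38. Its signals were 6.93, 6.70 and 6.49 in TB38, 4.47, 4.47 and 4.18 in TA38, and 4.65, 4.68 and 4.51 in TC38. The lowest TB38 array lay well above every sister array, and TA38 and TC38 lay close together near the low end of the array's range of 2.11 to 14.18. The difference was 2.33 ± 0.12 from TA38 and 2.09 ± 0.12 from TC38 (SE, larger adjusted p = 2.3e-07, limma). TB38 had been singled out by ARHGAP36, so this p-value is a description and no independent support. Sister signals this low give the size of the difference little meaning as a fold change of RNA, and 8 of the 36 genes called higher had both sister means under 6, as had 20.5% of all genes.

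Of the 25 measured genes of Hedgehog signalling and protein kinase A, none was called. The median of TB38 minus the mean of its sisters was -0.12 over this list and -0.01 over all genes. GLI1, a transcription factor and itself a transcriptional target of the pathway, had 6.68, 6.78 and 6.55 in TB38, 6.38, 6.26 and 6.34 in TA38, and 6.71, 6.83 and 6.53 in TC38. TB38 overlapped TC38 and lay above TA38. PTCH1, the Hedgehog receptor and another target, averaged 5.21 in TB38, 5.16 in TA38 and 5.24 in TC38, and the ligand-binding target HHIP averaged 6.37 in TB38, 6.0 in TA38 and 6.29 in TC38. The kinase subunits that ARHGAP36 binds were close in all 3 cultures, with PRKACA at 6.30 in TB38, 6.23 in TA38 and 6.28 in TC38 and PRKACB at 11.09 in TB38, 10.99 in TA38 and 10.95 in TC38. Without the fold limit, 5 genes of the list were lower in TB38 and none was higher, against 6.71% and 2.73% of all genes. These were SUFU, which restrains GLI factors, DISP1, which releases the ligand, KIF7 and EVC2, which act at the primary cilium, and PKIG, an inhibitor of protein kinase A. The count of lower genes was 2 on quantile normalization, where 1 gene was higher. It was 1 in the fit of 36 arrays, without the deviating arrays, and 0 in the fit of all 39 arrays. KIF7 had the largest smaller difference, -0.62 from TA38 and -0.67 from TC38.

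SOX2 was higher in TB38 than in sisters that also had a high signal. It had 11.09, 10.91 and 10.70 in TB38, 9.60, 9.24 and 9.26 in TA38, and 9.11, 8.49 and 9.24 in TC38. All TB38 arrays lay above all sister arrays, and the lowest TA38 arrays lay close to the highest TC38 array. The difference was 1.53 ± 0.18 from TA38 and 1.96 ± 0.18 from TC38 (SE, larger adjusted p = 4.41e-05, limma). As TB38 had been singled out by SOX2 too, this p-value is likewise a description. SOX2 has other, dimmer probe sets, and the brighter of those differed by 0.95 from TA38 and 0.76 from TC38, in the same direction but under the fold limit. With the median over its probe sets SOX2 was not called.

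Among neural progenitor genes, PAX6 and ZIC2 did not follow SOX2. Of the 12 measured genes of the neural progenitor list only SOX2 was called, where 0.255% of all genes were called higher. The median of TB38 minus its sisters was 0.03 over the list. Without the fold limit SOX2 alone was higher and none was lower, against 2.73% and 6.71% of all genes. PAX6, a paired-box factor of the eye and the dorsal neural tube, had 9.72, 9.62 and 9.39 in TB38, 11.16, 10.95 and 11.05 in TA38, and 9.04, 8.65 and 8.94 in TC38. TB38 thus lay between its sisters. ZIC2, a zinc finger factor of the neural plate, averaged 10.32 in TB38, 8.44 in TA38 and 10.92 in TC38, again with TB38 in between. None of the 12 genes of the neuron list was called. In that list SYT1, a calcium sensor of synaptic vesicles, averaged 10.89 in TB38, 10.30 in TA38 and 10.19 in TC38, and it passed without the fold limit (0.59 from TA38 and 0.70 from TC38, larger adjusted p = 3e-04, limma).

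S100B had the largest smaller difference of all genes called higher. This calcium-binding protein is abundant in astrocytes and Schwann cells. Its signals were 7.64, 7.59 and 7.70 in TB38, 4.91, 4.83 and 4.89 in TA38, and 4.91, 5.14 and 5.10 in TC38. The TB38 arrays formed a tight group far above the sisters, which lay close together. The difference was 2.76 ± 0.08 from TA38 and 2.59 ± 0.08 from TC38 (SE, larger adjusted p = 4.32e-09, limma). S100B was the only called gene among the 11 measured genes of glia, Schwann cells and neural crest, whose median difference was 0.03. Of all genes 0.255% were called higher. S100B was also the only one of the 11 higher without the fold limit, against 2.73% of all genes. With the median over probe sets, 2 genes of the list were called higher, of 29 called higher in all. On those terms 5 genes of the list were higher without the fold limit and none was lower.

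GPM6A and GPM6B, which encode related proteolipid membrane proteins of neurons and glia, were both higher in TB38. GPM6B, on chromosome X, had 8.12, 8.33 and 8.35 in TB38, 6.31, 6.48 and 6.29 in TA38, and 6.50, 6.18 and 6.35 in TC38. Its 5 other probe sets differed by 1.68 to 2.17 in the same direction against both sisters. GPM6A had 9.99, 10.19 and 10.04 in TB38, 8.62, 8.75 and 8.69 in TA38, and 8.34, 7.93 and 8.42 in TC38, and its 2 other probe sets also passed the limit. For both genes TB38 stood clear of the sisters, whose signals lay close together. TMOD2, the neuronal tropomodulin that caps actin filaments, averaged 6.90 in TB38, 5.50 in TA38 and 5.49 in TC38. It was higher than in TB38 in other cultures of the series, so TA38 and TC38 were the low ones. TMOD2 averaged 7.04 in TA31, 7.81 in TC31, 8.01 in TD31 and 7.79 in TE31, and 9.24 and 8.56 in the skin cultures M032 and M088. The dimmer probe set of TMOD2 differed by 0.32 from TA38 and 0.19 from TC38, and TMOD2 was not called with the median over probe sets.

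Genes of the retinoic acid pathway moved in both directions. Retinoic acid is made from vitamin A by aldehyde dehydrogenases and is carried in the cytoplasm by the CRABP proteins. ALDH1A3, one of these enzymes, had 10.92, 10.97 and 10.75 in TB38, 8.85, 8.89 and 8.94 in TA38, and 9.18, 8.86 and 8.99 in TC38. The sisters overlapped and TB38 stood above both, by 1.98 ± 0.09 from TA38 and 1.87 ± 0.09 from TC38 (SE, larger adjusted p = 1.04e-07, limma). CRABP1 had 7.85, 7.77 and 7.75 in TB38, 9.94, 10.03 and 10.31 in TA38, and 9.96, 10.26 and 9.84 in TC38. Here the sisters overlapped and TB38 lay below both, with differences of -2.30 ± 0.12 and -2.23 ± 0.12 (SE, larger adjusted p = 1.53e-07, limma).

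CRABP2 fell as well, with 9.27, 9.24 and 9.29 in TB38, 10.08, 10.33 and 10.59 in TA38, and 10.75, 10.96 and 10.71 in TC38. Its difference from TA38 was -1.07, and it dropped under the fold limit on quantile normalization or without TA38 replicate c. Of the 13 measured genes of the pathway, 1 was thus called higher and 2 lower, where 0.255% and 0.241% of all genes were. The median difference was -0.23. With the fold limit dropped, 1 was higher and 4 were lower, against 2.73% and 6.71% of all genes. In the fit of all 39 arrays these counts were 1 and 0. ALDH1A2, the main retinaldehyde dehydrogenase of the embryonic mesoderm, separated TA38 from the others, with 8.36 in TB38, 12.33 in TA38 and 7.38 in TC38. The retinaldehyde reductase DHRS3 followed that split, with 7.69 in TB38, 11.19 in TA38 and 8.08 in TC38, and passed without the fold limit, as did the nuclear receptor RXRA, which averaged 5.92 in TB38, 6.40 in TA38 and 6.34 in TC38.

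Some of the other genes with a large rise encode secreted or surface proteins. CALCB encodes the beta form of the neuropeptide calcitonin gene-related peptide, and its signals were 8.60, 8.26 and 8.39 in TB38, 5.45, 5.59 and 5.58 in TA38, and 6.14, 6.19 and 6.25 in TC38. CRISPLD1, a secreted cysteine-rich protein, had 9.80, 9.75 and 9.83 in TB38, 7.52, 7.35 and 7.17 in TA38, and 7.40, 6.99 and 7.07 in TC38. In both genes the lowest TB38 array exceeded the highest sister array by more than the sister arrays of a culture differed among themselves. FBLN7, a fibulin of cell adhesion, averaged 10.09 in TB38, 8.19 in TA38 and 8.51 in TC38. HBEGF, a ligand of the EGF receptor, averaged 11.07 in TB38, 9.53 in TA38 and 9.83 in TC38, but a dimmer probe set of it differed by -0.03 from TA38 and -0.28 from TC38. ITGB8, the integrin subunit that releases active TGF-beta from its latent form, had 10.32, 10.01 and 10.14 in TB38, 9.08, 8.63 and 8.83 in TA38, and 8.13, 7.69 and 8.39 in TC38. Its dimmer probe sets differed by 0.27 to 0.93 from TA38 and by 0.04 to 0.94 from TC38, all under the limit.

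ITM2A, a membrane protein gene on chromosome X known from muscle and cartilage development, had the largest difference from TA38 of the genes called higher. It had 9.55, 9.20 and 9.30 in TB38, 5.27, 4.95 and 4.92 in TA38, and 7.75, 7.65 and 7.82 in TC38. The 3 cultures were each apart from the others, and the differences were 4.31 from TA38 and 1.61 from TC38. Intracellular proteins among the genes with the largest rise included SLAIN1, which promotes microtubule growth, at 7.55 in TB38, 5.93 in TA38 and 5.04 in TC38, and RIPOR2, at 7.70 in TB38, 6.13 in TA38 and 5.70 in TC38. The dimmer probe sets of RIPOR2 differed by 0.26 and 0.35 from TA38, and each by 0.15 from TC38. PIPOX, a peroxisomal enzyme of pipecolate and sarcosine breakdown, averaged 7.64 in TB38, 6.02 in TA38 and 6.27 in TC38. PHYHIPL averaged 9.70 in TB38, 8.16 in TA38 and 7.60 in TC38, and MAP3K7CL averaged 11.02 in TB38, 9.09 in TA38 and 9.73 in TC38.

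Less strongly raised genes had known roles of several kinds. RASD1, a Ras-like protein induced by glucocorticoids, averaged 9.36 in TB38, 7.07 in TA38 and 8.14 in TC38. TRAK2, an adaptor of mitochondrial transport, averaged 7.26 in TB38, 5.96 in TA38 and 6.06 in TC38, and PPARGC1A, a coactivator of mitochondrial biogenesis, averaged 6.25 in TB38, 4.86 in TA38 and 5.08 in TC38. The copper-carrying plasma protein gene CP averaged 7.07 in TB38, 5.88 in TA38 and 5.53 in TC38, and DNER, a Notch ligand of neurons, averaged 8.19 in TB38, 6.41 in TA38 and 7.02 in TC38. The remaining genes called higher were PI15, BRINP1, QPCT, LOC716834, STAG1, LOC696048, UBD and SLC9A7, with smaller differences between 1.03 and 1.19. Just inside the limit lay LOC713067, with differences of 1.01 from TA38 and 1.47 from TC38, and PLAAT3, with 1.00 and 1.43. Just outside lay LOC709412, with 1.23 from TA38 and 0.99 from TC38, and LOC716196, with 0.99 and 1.42. In the fit of all 39 arrays the calls of CRISPLD1, ITM2A, GPM6A, ITGB8, MAP3K7CL, HBEGF, OCLN, LOC713067 and PLAAT3, among the genes named by rule, were lost.

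**Figure D2:**
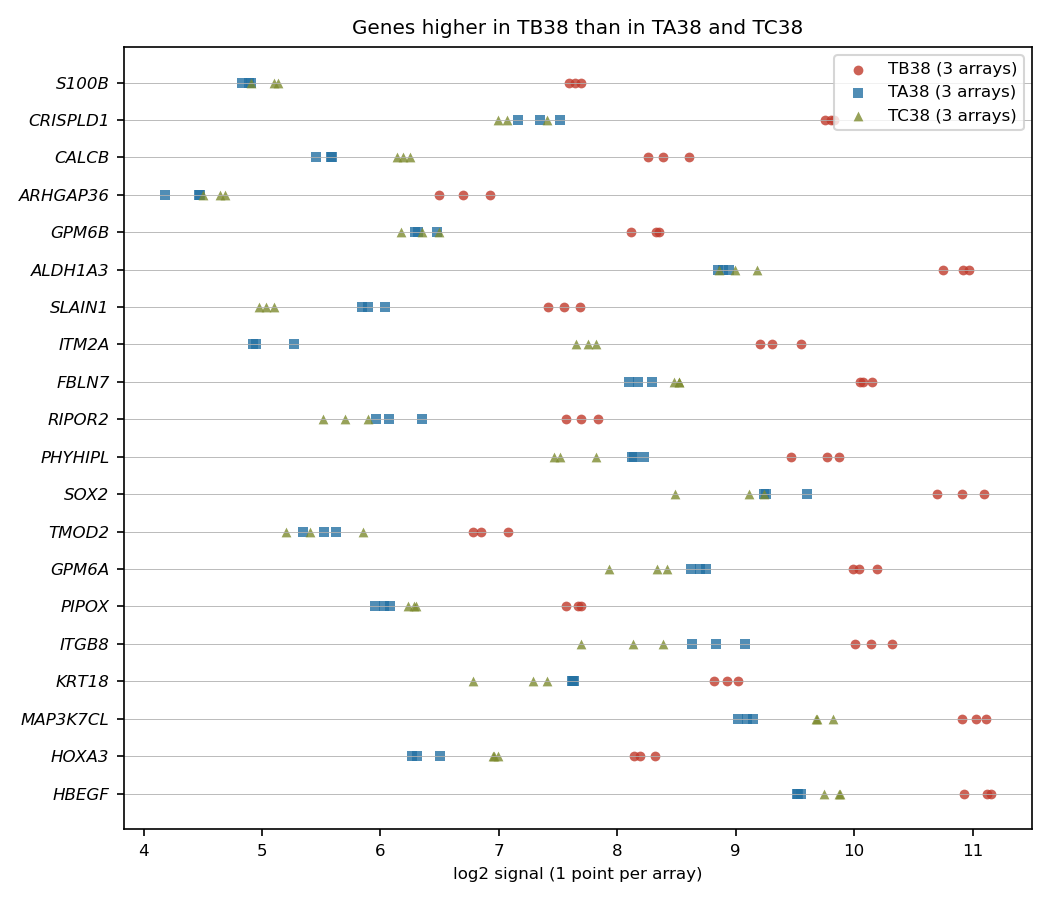
Log2 signal of each array (horizontal axis) for the 20 genes called higher with the largest smaller difference, with TB38 as circles, TA38 as squares and TC38 as triangles. In every row the 3 TB38 arrays lie right of all 6 sister arrays. ITM2A is the row with the widest gap between the sisters, at means of 5.05 in TA38 and 7.74 in TC38.

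OGN had the largest fall. It encodes osteoglycin, a small leucine-rich proteoglycan of connective tissue, and its signals were 6.93, 6.99 and 6.74 in TB38, 10.51, 10.28 and 10.20 in TA38, and 9.48, 9.08 and 9.25 in TC38. Every TB38 array lay more than 2 log2 units below every sister array, and TC38 lay below TA38. The difference was -3.44 ± 0.12 from TA38 and -2.38 ± 0.12 from TC38 (SE, larger adjusted p = 8.37e-08, limma). A second probe set of OGN differed by -2.43 from TA38 and -1.68 from TC38.

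OGN was the only call among the 30 fibroblast matrix genes, where 0.241% of all genes were called lower. The median difference of that list was -0.01. With the fold limit dropped, 7 of the list were lower and none was higher, against 6.71% and 2.73% of all genes. The count of lower genes was 3 in the fit of 36 arrays and 1 in the fit of all 39 arrays. DCN, the proteoglycan decorin, had 12.57, 12.65 and 12.58 in TB38, 11.39, 11.18 and 11.20 in TA38, and 12.53, 12.40 and 12.54 in TC38, so TA38 alone was low. HAPLN1, the link protein that ties proteoglycans to hyaluronan, had 7.69, 8.06 and 7.40 in TB38, 10.59, 10.67 and 10.69 in TA38, and 9.73, 9.34 and 9.53 in TC38. It was the only called gene of 20 cartilage and bone genes, where 0.241% of all genes were called lower. All of its probe sets passed the limit, and TB38 lay apart from both sisters. EMILIN1, a glycoprotein of elastic fibres, had 7.93, 7.69 and 7.57 in TB38, 8.80, 9.60 and 9.83 in TA38, and 9.53, 9.70 and 8.35 in TC38. The sister arrays spread widely there, and the nearest to TB38 was TC38 replicate c.

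Surface and secreted proteins with a large fall included receptors and adhesion molecules. NPR3, the clearance receptor of natriuretic peptides, had 6.0, 6.04 and 6.17 in TB38, 8.48, 8.62 and 8.62 in TA38, and 8.19, 7.95 and 8.19 in TC38. VCAM1, an adhesion molecule that binds leukocytes, had 7.48, 7.56 and 7.52 in TB38, 9.33, 9.12 and 9.33 in TA38, and 9.30, 9.35 and 9.51 in TC38. For both genes the TB38 arrays were tightly grouped below the sisters, and each kept its call in the fit of all 39 arrays. PEAR1, a receptor first described in platelets and endothelium, averaged 6.04 in TB38, 7.81 in TA38 and 7.54 in TC38. TM4SF1, a tetraspanin-like membrane protein, averaged 8.09 in TB38, 10.62 in TA38 and 9.45 in TC38. The ligand WNT2 averaged 7.89 in TB38, 9.20 in TA38 and 8.91 in TC38 and lay just inside the limit, as did HPSE, the heparan sulfate-cleaving heparanase, at 6.33 in TB38, 8.62 in TA38 and 7.34 in TC38. WNT2 was the only called gene of 30 genes of WNT signalling, where 0.241% of all genes were called lower. With the fold limit dropped, 6 of the 30 were lower and none was higher, against 6.71% and 2.73% of all genes. In the fit of all 39 arrays the count of lower genes was 0.

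S100A4, a calcium-binding protein often used as a fibroblast marker, had 10.15, 10.18 and 10.17 in TB38, 12.61, 12.95 and 12.85 in TA38, and 12.14, 12.20 and 11.72 in TC38. Its family member S100B was thus higher, and S100A4 lower, in the same arrays. The differences of S100A4 were -2.64 ± 0.12 from TA38 and -1.86 ± 0.12 from TC38 (SE, larger adjusted p = 1.01e-06, limma). RCAN2, a regulator of the phosphatase calcineurin, averaged 6.61 in TB38, 9.75 in TA38 and 8.41 in TC38 on its brightest probe set. Its other probe sets differed by 0.18 to 0.25 in the opposite direction, so the fall rests on 1 probe set.

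Regulators with a fall included mesenchymal transcription factors. PRRX2, a paired-related homeobox factor of mesenchyme, had 8.50, 8.59 and 8.52 in TB38, 9.43, 9.79 and 10.05 in TA38, and 9.98, 10.14 and 9.37 in TC38. MAB21L2, a regulator of eye and body wall development in mice, had 6.0, 5.79 and 5.88 in TB38, 7.21, 7.12 and 7.35 in TA38, and 7.81, 7.56 and 7.43 in TC38. Neither gene overlapped between TB38 and its sisters, and the differences of PRRX2 were -1.22 from TA38 and -1.29 from TC38 (larger adjusted p = 0.00044, limma). EPAS1, the hypoxia-inducible factor HIF-2alpha, averaged 9.30 in TB38, 10.76 in TA38 and 10.59 in TC38, while its dimmer probe set differed by -0.01 and -0.20. NANOS1, an RNA-binding repressor of translation, averaged 7.89 in TB38, 9.51 in TA38 and 9.09 in TC38. EP400, a chromatin remodelling ATPase, averaged 6.93 in TB38, 9.15 in TA38 and 8.09 in TC38, but its other probe sets differed by at most -0.53.

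H19, an imprinted non-coding RNA, had 11.38, 11.29 and 11.28 in TB38, 12.63, 12.81 and 12.91 in TA38, and 12.60, 12.68 and 12.45 in TC38. The sisters overlapped and TB38 lay more than 1 log2 unit below both, at -1.47 ± 0.09 from TA38 and -1.26 ± 0.09 from TC38 (SE, larger adjusted p = 2.15e-06, limma). One other probe set of H19 also passed the limit, at -1.67 and -1.28, and another had -1.09 and -0.83. H19 was the only called gene of 13 imprinted genes, where 0.241% of all genes were called lower. Without the fold limit NDN, the necdin gene, and SGCE, a sarcoglycan gene, were higher in TB38, with NDN at 11.66 in TB38, 11.27 in TA38 and 11.20 in TC38, while the zinc finger gene PLAGL1 was lower, at 8.97 in TB38, 9.77 in TA38 and 9.46 in TC38.

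Further genes called lower had known roles of several kinds. The synaptic and neuronal genes NRXN3 and OLFM3 averaged 5.79 and 6.07 in TB38, 7.75 and 9.49 in TA38, and 6.93 and 7.23 in TC38. The dimmer probe set of NRXN3 differed by -0.32 from TA38 and -0.23 from TC38. SYNPO2, an actin-bundling protein of smooth muscle, averaged 5.54 in TB38, 7.65 in TA38 and 6.88 in TC38, but its dimmer probe set differed by 0.01 and -0.08. PTX3, a secreted pattern recognition protein, averaged 7.32 in TB38, 9.35 in TA38 and 8.43 in TC38, and the neurotrophin NTF3 averaged 7.70, 9.38 and 8.74 in that order. PCDH7, FABP3, MT1E, UBE2L6, CRISPLD2, MASP1, COLEC12, EPSTI1 and SCARF2 made up the rest. Just outside the limit lay PLAC8, which was at 6.44 in TB38, 12.49 in TA38 and 7.43 in TC38, and the bile acid receptor NR1H4, at 7.15 in TB38, 8.70 in TA38 and 8.11 in TC38. In the fit of all 39 arrays the calls of OGN, CRABP1, CRABP2, S100A4, HAPLN1, EMILIN1, KRT8, TM4SF1, SYNPO2, MAB21L2, EPAS1, H19, NANOS1, EP400, NRXN3, PCDH7 and WNT2, among the genes named by rule, were lost.

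**Figure D3:**
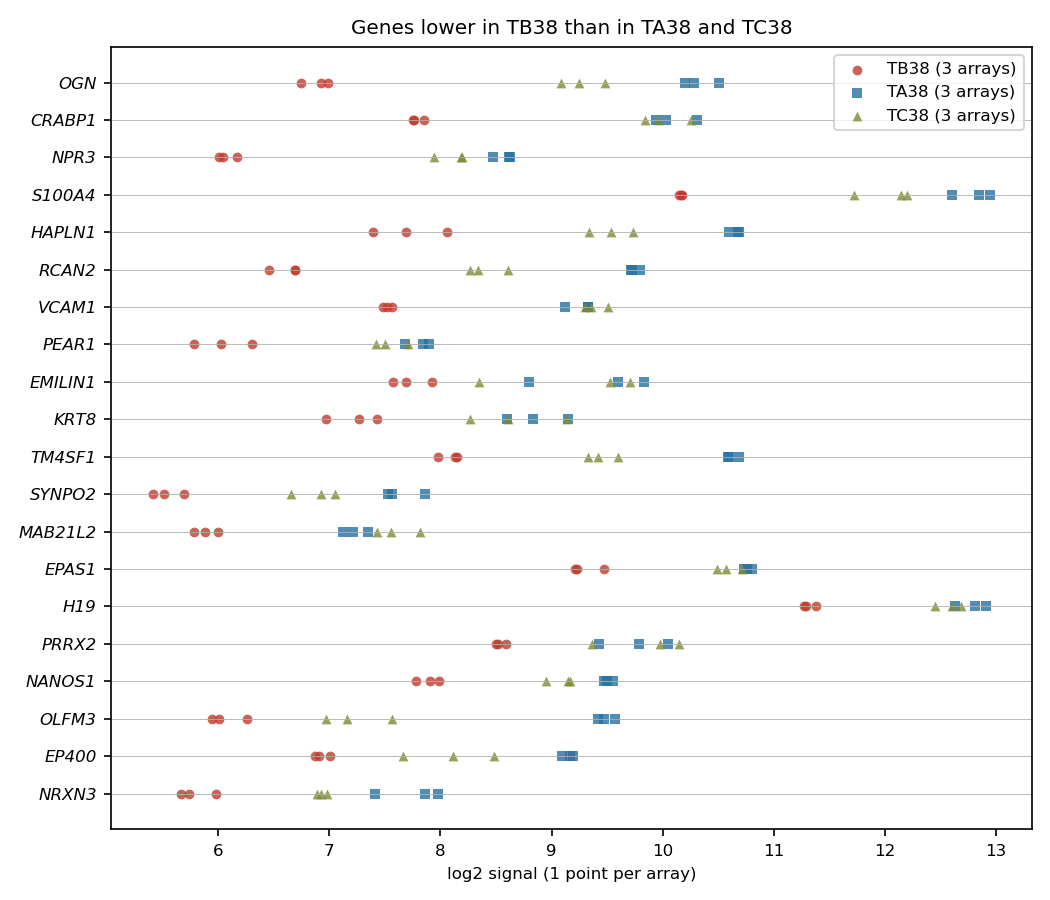
Log2 signal of each array (horizontal axis) for the 20 genes called lower with the largest smaller difference, with TB38 as circles, TA38 as squares and TC38 as triangles. In every row the 3 TB38 arrays lie left of all 6 sister arrays. TC38 lies between TB38 and TA38 for OGN, S100A4, HAPLN1 and RCAN2, and the sisters overlap for CRABP1, VCAM1, EMILIN1 and KRT8.

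Over the called genes, TB38 was farther from TA38 than from TC38 for 28 of the 34 lower genes (82.4%) and for 19 of the 36 higher genes (52.8%), against 53.2% of all genes. Where a called gene had further probe sets, these did not all bear out its difference. Among the 36 higher genes 21 had a single probe set, 4 had a brightest other probe set past the limit in the same direction, 7 had one under the limit, 2 had one with mixed directions and 2 had one in the other direction. Among the 34 lower genes the counts were 18, 4, 9, 2 and 1 in the same order.

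The keratins that pair as KRT8 and KRT18 in simple epithelia moved apart. KRT8 had 7.27, 6.97 and 7.43 in TB38, 8.60, 8.83 and 9.15 in TA38, and 8.61, 9.14 and 8.27 in TC38. KRT18 had 8.93, 8.82 and 9.02 in TB38, 7.63, 7.64 and 7.62 in TA38, and 7.29, 6.79 and 7.40 in TC38. Neither overlapped with the sisters, with differences from TA38 and TC38 of -1.64 and -1.45 for KRT8 and of 1.29 and 1.76 for KRT18. The dimmer probe set of KRT18 differed by 0.04 from TA38 and -0.11 from TC38, and KRT18 was not called with the median over probe sets. OCLN, the tight junction protein occludin, averaged 6.09 in TB38, 4.36 in TA38 and 4.86 in TC38. These were the 3 calls, 2 higher and 1 lower, among 17 genes of epithelium and keratinocytes, where 0.255% and 0.241% of all genes were called. The median difference of the list was 0.03. Its mean level ran from 6.84 to 6.87 in TB38 arrays, from 6.76 to 6.83 in TA38 arrays and stood at 6.82 in TC38 arrays.

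HOXA3, a homeobox gene of the pharyngeal region and the hindbrain, was the only called gene among 29 HOX genes and TALE cofactors. Of all genes 0.255% were called higher. HOXA3 had 8.19, 8.32 and 8.14 in TB38, 6.27, 6.50 and 6.31 in TA38, and 6.99, 6.95 and 6.96 in TC38. Each culture held its own level, with TB38 the highest. A dimmer probe set differed by -0.05 and -0.07, and HOXA3 was not called with the median over probe sets. Its neighbour HOXA2 was higher without the fold limit, at 5.99 in TB38, 5.17 in TA38 and 5.32 in TC38, whereas HOXA7 and HOXC6 were lower, at 5.68 and 6.90 in TB38, 6.46 and 7.32 in TA38, and 6.03 and 7.54 in TC38. Of 36 other patterning factors none was called. Lower without the fold limit were the mesenchymal factor TWIST1, at 8.46 in TB38, 9.46 in TA38 and 9.39 in TC38, the craniofacial factor ALX1, at 5.16, 6.0 and 5.95 in that order, the limb factor SHOX2, at 7.30, 9.13 and 8.03, and EMX2, at 6.56, 7.31 and 7.65.

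Skeletal muscle genes placed TB38 beside TA38 and apart from TC38. MYH3 had 9.75, 9.68 and 9.17 in TB38, 10.33, 10.22 and 10.12 in TA38, and 5.61, 5.55 and 5.62 in TC38. ACTC1, the actin of heart and embryonic skeletal muscle, averaged 10.93 in TB38, 11.17 in TA38 and 8.63 in TC38, and the fast myosin light chain gene MYL1 averaged 7.55 in TB38, 7.55 in TA38 and 4.50 in TC38. None of the 19 genes of the list was called. All 3 TB38 arrays lay above all 6 sister arrays for 2 of the 19, where 5.4% of all genes did so. The troponin gene TNNT2 was among these, at 9.45 in TB38, 9.09 in TA38 and 8.82 in TC38, and passed without the fold limit. The mean level of the list ran from 7.13 to 7.28 in TB38 arrays, from 7.24 to 7.33 in TA38 arrays and from 6.30 to 6.34 in TC38 arrays. Fewer cells of a type and less RNA per cell cannot be told apart in such bulk samples. No gene was called among 9 macrophage and leukocyte, 7 melanocyte, 6 adipocyte, 10 endoderm, 13 pluripotency and 13 endothelium and pericyte genes. PTPRC, the pan-leukocyte gene, lay between 5.93 and 6.20 in TB38, 5.85 and 6.13 in TA38, and 5.98 and 6.20 in TC38. In the endothelial list the angiopoietin receptor TEK was lower without the fold limit, at 5.81 in TB38, 8.38 in TA38 and 6.38 in TC38.

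Genes of the cell cycle were lower in TB38 by less than the fold limit. No gene of the 30 measured was called, but without the fold limit 19 were lower and none was higher, against 6.71% of all genes lower. All 3 TB38 arrays lay below all 6 sister arrays for 22 of the 30, against 11.5% of all genes. The median of TB38 minus the mean of its sisters was -0.51, and -0.01 over all genes. CCNB2, a cyclin of mitosis, had 9.18, 9.07 and 9.11 in TB38, 10.02, 9.94 and 9.96 in TA38, and 10.08, 10.10 and 10.03 in TC38. AURKA, a mitotic kinase, had 9.12, 9.04 and 9.16 in TB38, 9.87, 9.78 and 9.78 in TA38, and 10.01, 10.22 and 10.18 in TC38. In both genes TB38 stood apart below the sisters, with differences from TA38 and TC38 of -0.85 and -0.95 for CCNB2 and of -0.70 and -1.03 for AURKA.

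The lower genes spanned replication and mitosis. MCM3, a subunit of the replicative helicase, had 9.21, 8.97 and 8.80 in TB38, 9.62, 9.73 and 9.75 in TA38, and 9.98, 9.84 and 9.88 in TC38. FOXM1, a transcription factor of mitotic genes, had 8.29, 8.08 and 8.02 in TB38, 8.77, 8.85 and 8.88 in TA38, and 9.11, 8.94 and 8.97 in TC38. MKI67, the gene of the proliferation antigen Ki-67, had 8.68, 8.54 and 8.55 in TB38, 9.32, 9.14 and 9.11 in TA38, and 9.16, 8.99 and 8.99 in TC38. In all 3 genes TB38 lay below every sister array, by a margin that was narrower for MKI67. TOP2A, the topoisomerase of dividing cells, averaged 9.91 in TB38, 10.67 in TA38 and 10.50 in TC38, and E2F8, a repressor of the E2F family, averaged 6.29, 7.25 and 6.98 in that order. CDK1, RFC3 and CCNE2 did not share the shift, with CDK1 differing by -0.04 from TA38 and -0.06 from TC38, and CCNE2 by -0.02 and 0.48.

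The count of 19 rested on arrays as the unit and on the 9 arrays of the line. It was 15 with arrays centred on their medians, 11 on quantile normalization, 13 in the fit of 36 arrays, 0 in limma's fit of all 39 arrays (4 at an unadjusted p under 0.05) and 0 with culture means (3 at an unadjusted p under 0.05). By the same rule without the fold limit TA38 had none of these genes higher or lower than its sisters, and TC38 had 6 higher and 1 lower. Of 20 genes of arrest, senescence and stress none was called. With the fold limit dropped, 6 of the 20 were lower and 1 was higher, against 6.71% and 2.73% of all genes. Both counts were 0 in the fit of all 39 arrays. The CDK inhibitor genes CDKN1A and CDKN2C were also lower without the fold limit, with CDKN1A at 10.81 in TB38, 11.45 in TA38 and 11.28 in TC38 and CDKN2C at 8.90, 9.52 and 9.28 in that order. LMNB1, the lamin whose loss accompanies senescence, averaged 9.71 in TB38, 10.43 in TA38 and 10.63 in TC38. DDIT3, a factor of the unfolded protein response, was higher without the fold limit, at 10.04 in TB38, 8.99 in TA38 and 9.68 in TC38.

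**Figure D4:**
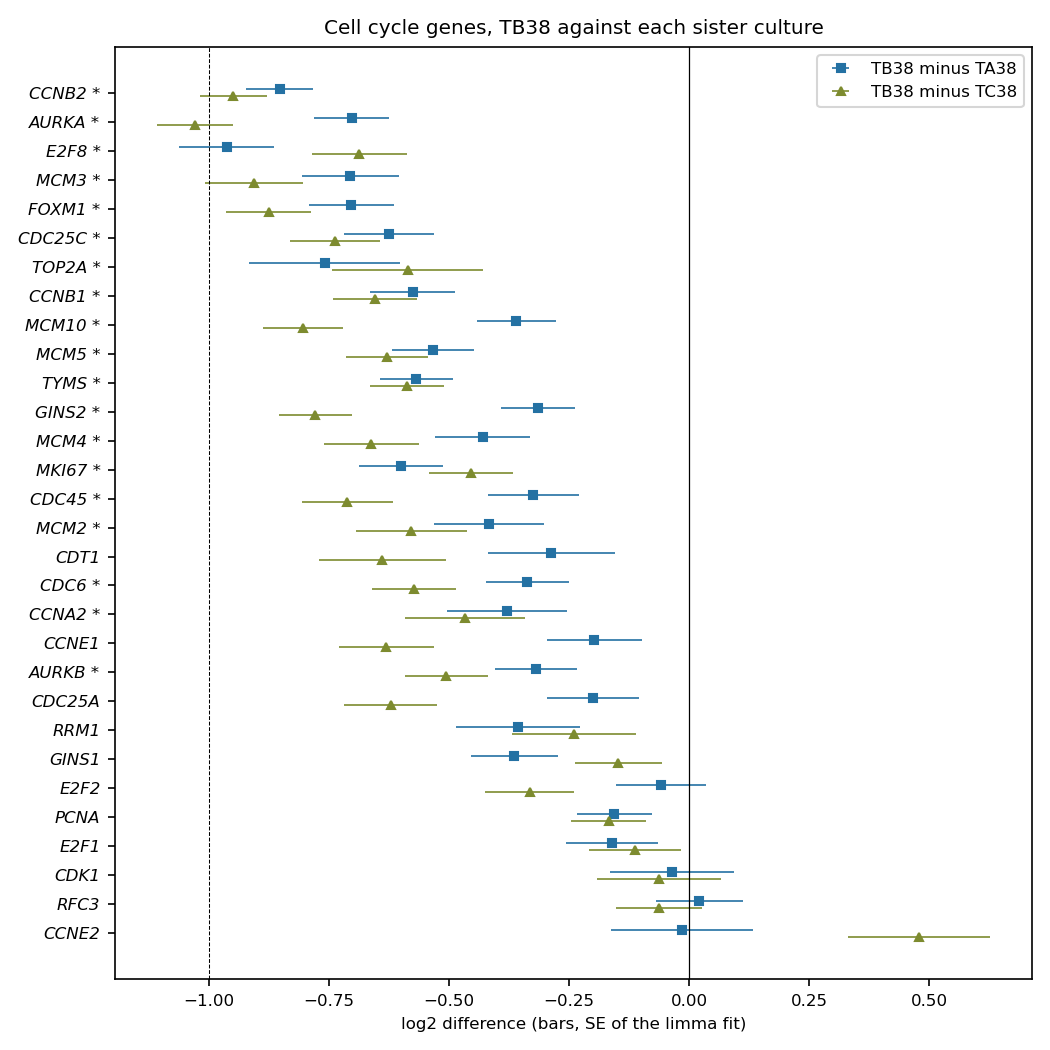
Log2 difference of TB38 from TA38 (squares) and from TC38 (triangles) for the 30 cell cycle genes, with the SE of the limma fit as bars and an asterisk at the 19 genes that were lower without the fold limit. For those 19 the differences run between -0.96 and -0.31 against TA38 and between -1.03 and -0.45 against TC38, so AURKA alone passes the dashed line at -1, against TC38.

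Signalling lists other than those above held few calls. Of 27 genes of TGF-beta, activin and BMP signalling and 26 of FGF and receptor tyrosine kinase signalling none was called. The ligand BMP2 was higher without the fold limit, at 6.96 in TB38, 5.98 in TA38 and 6.34 in TC38, whereas the BMP target genes ID1 and ID3 were lower, with ID1 at 10.13 in TB38, 10.56 in TA38 and 10.86 in TC38. Another member of that family, ID4, was higher without the limit, at 9.89 in TB38, 8.55 in TA38 and 9.38 in TC38. ETV1, a transcription factor downstream of FGF receptors, averaged 9.67 in TB38, 8.95 in TA38 and 8.16 in TC38, and SPRY2, a feedback inhibitor of these receptors, averaged 9.38, 8.91 and 8.92 in that order, both higher without the limit. The WNT receptor FZD7 was lower without it, at 10.21 in TB38, 11.26 in TA38 and 10.69 in TC38, as were the ligand WNT4 and the receptor ROR2. None of 30 interferon-induced and MHC class I genes was called. With the fold limit dropped, 5 of the 30 were lower and none was higher, against 6.71% and 2.73% of all genes. In the fit of all 39 arrays the count of lower genes was 0. ISG15, a ubiquitin-like protein induced by interferon, averaged 6.73 in TB38, 7.15 in TA38 and 7.24 in TC38, and passed without the fold limit (larger adjusted p = 0.00172, limma).

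Set beside the whole series, the higher genes placed TB38 above most cultures. For 27 of the 36 the mean of TB38 exceeded that of all 7 other teratoma cultures without the 3 deviating arrays (75%, against 10.3% of all genes), and for 28 it exceeded all 3 skin cultures (77.8%, against 31.5%). TB38 was chosen as above 2 of these 7 cultures, so the share is a description. ARHGAP36 was higher than in TB38 in C3106, at 8.30 ± 0.43 (SD, n = 3), and in C3806a, at 8.89. C3806b, at 6.64, lay within the TB38 range of 6.49 to 6.93. In the 5 teratoma cultures of line 3106 ARHGAP36 ran from 4.21 in TB31 without its deviating array to 5.10 in TC31. In the skin cultures it ran from 3.98 to 4.35. SOX2 was at 10.33 in TA31 and 7.90 in TC31 but at 4.78 in TD31, 4.81 in TB31 and 5.02 in TE31, and at 4.33 to 4.55 in skin. In the ESC lines it was at 12.54 in C3106 and 12.41 in C3806. S100B and CALCB were high in TB38 alone, since the next highest culture was TC31 at 5.37 for S100B and TB31 at 6.40 for CALCB, and the ESC lines stood at 4.36 and 4.49 for S100B and at 5.51 and 5.55 for CALCB. Both ESC lines exceeded the mean of TA38 and TC38 for 13 of the 36 higher genes (36.1%, against 42.7% of all genes). The rule sets that mean low for these genes, so this share is a description too.

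The lower genes were set beside the series in the same way. By the rule that chose them, TA38 and TC38 were high in these genes and TB38 low. The shares that follow are therefore descriptions. For 15 of the 34, TB38 lay below all 7 other teratoma cultures (44.1%, against 14.9% of all genes), among them OGN, NPR3, S100A4, EPAS1 and PRRX2. Both ESC lines lay below the mean of TA38 and TC38 for 30 of the 34 (88.2%, against 38.9% of all genes). All 3 skin cultures lay above TB38 for 20 of the 34 (58.8%, against 25.4%). CRABP1 fell outside that group: it was at 7.79 in TB38, 11.93 in TD31 and 9.51 in TC31, at 7.47 in TA31 and 5.00 in TE31, and at 4.53 to 5.44 in skin. VCAM1 was at 7.52 in TB38, 6.27 in TE31 and 9.71 in TD31. TA31, a culture of the other line that also had a high SOX2 signal, lay above the mean of TA38 and TC38 for 29 of the 36 higher genes (80.6%) and for 7 of the 34 lower genes (20.6%), against 39.3% of all genes. The rule sets that mean low for the higher genes and high for the lower, so these shares are descriptions. Whether TA31 resembles TB38 was not tested.

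**Figure D5:**
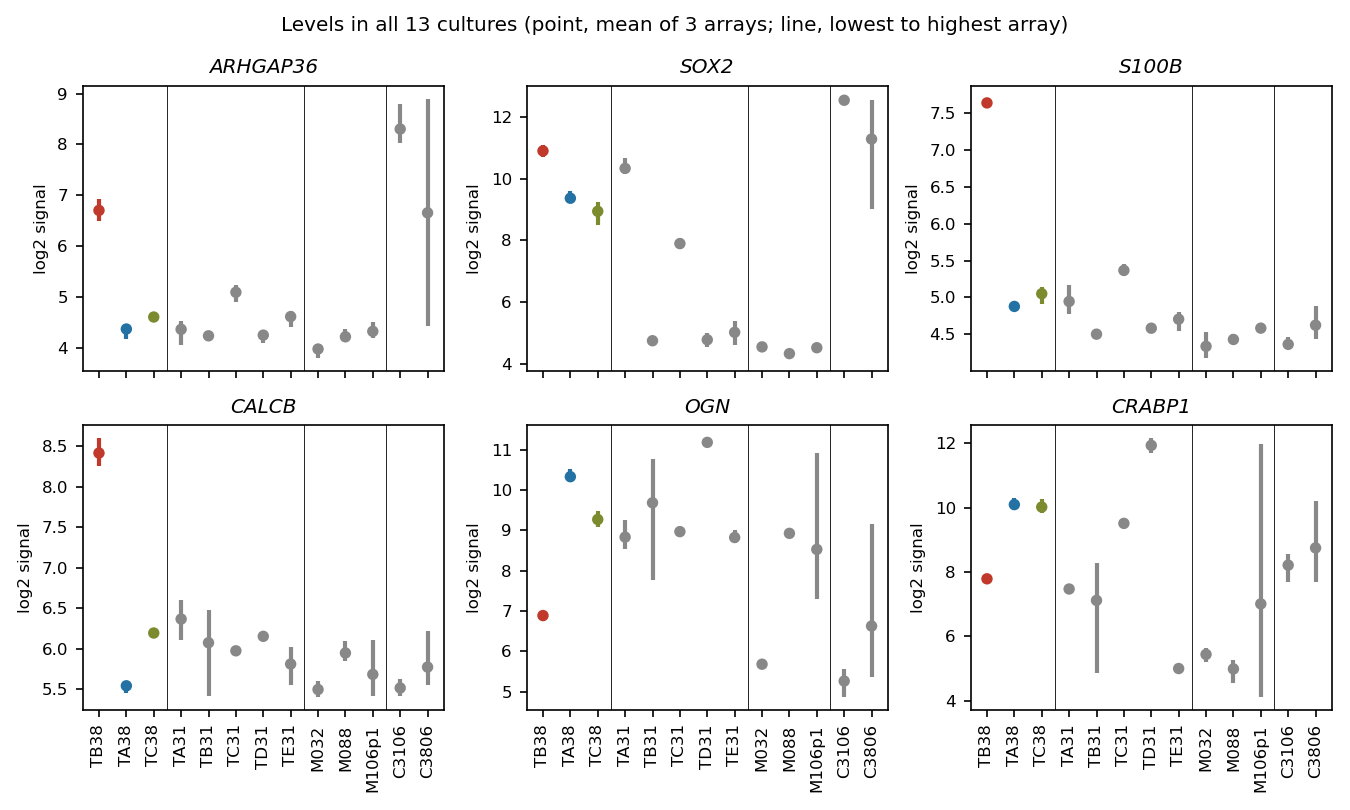
Log2 signal of 6 genes in the 13 cultures, with TB38 first, then its sisters TA38 and TC38, the teratoma cultures of line 3106, the skin cultures and the ESC lines (point, mean of 3 arrays, line, lowest to highest array). ARHGAP36 is high in TB38 and in the ESC lines, S100B and CALCB in TB38 alone, and SOX2 in TB38, its sisters, TA31, TC31 and the ESC lines. All 3 arrays of each culture are drawn, so C3806, TB31 and M106p1 include the array that goes against its label.

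By chromosome, 5 genes called higher lay on X, which are ARHGAP36, GPM6B, ITM2A, LOC696048 and SLC9A7, of 590 genes measured there (0.847%, against 0.255% of all genes), and none called lower did. The cultures share the 3806 genome, and the median of TB38 minus the mean of its sisters over the X genes with a mean of at least 6 was -0.03. Over all chromosomes this median ran from -0.09 on chromosome 19 to 0.02 on chromosome 17.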

How the data were processed

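Total RNA of cultured rhesus cells was measured on single-colour arrays. The deposited values are log2 signals, which the authors made with GCOS and RMA, per the submitters' processing notes. Program versions: not given in the sources used here. Of 52865 probe sets, 24969 were annotated with 1 gene, 361 with several and 27535 with none in the platform annotation. After controls were left out, 14132 genes remained, 6375 of them with several probe sets, and the brightest was used. Chromosomes came by gene identifier from the RefSeq gene table of T2T-MMU8v2.0 for 13945 genes, and no coordinates were used. The arrays' medians lay between 6.25 and 6.48. The number of arrays limits the precision.

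A linear model with 1 term per culture was fitted to the 9 arrays of TB38, TA38 and TC38 (limma 3.58.1, R 4.3.3), leaving 6 residual degrees of freedom. Tests were two-sided, with Benjamini-Hochberg adjustment over all 14132 genes. The script was tested on simulated data. Members and the 29 gene lists, which held 555 measured genes, were chosen with earlier results of these data known. Genes were named by rule: ARHGAP36 and SOX2, the 20 genes called each way with the largest smaller difference, called list members or the leading member of a list without a call, and the 2 genes nearest the fold limit on each side. Other genes, among them further called genes, GLI1, PAX6, MYH3 and the cell cycle genes beside CCNB2, were named after their values were seen. Alternatives changed the arrays in the fit, the unit, the probe set, the filter on dim genes, the scaling, the variance model, the fold limit, the replicate block and the arrays left out. A description of promoter motifs was planned and not run.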

Additional observations from a re-analysis of the deposited data

Results flagged for a closer look

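Probe sets with no single gene name were not used in the comparisons, and they also held signals that set TB38 apart from both sisters. By the same rule, 56 of the 27810 such probe sets were higher in TB38 (0.201%) and 26 were lower (0.0935%). The largest rise was at a probe set with means of 8.58 in TB38, 5.19 in TA38 and 4.88 in TC38, and the next at MmuSTS.2869.1.S1_at, with 9.72 in TB38, 4.18 in TA38 and 6.81 in TC38. MmugDNA.3122.1.S1_at, at 7.19 in TB38, 10.62 in TA38 and 9.49 in TC38, and MmugDNA.17438.1.S1_at, at 5.18 in TB38, 8.53 in TA38 and 7.33 in TC38, had the largest fall. Which genes they measure was not tested.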

How the results depend on the processing

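No result changed direction under the alternatives run. The 36 genes higher and 34 lower in TB38 became 21 and 10 in the fit of all 39 arrays, 0 and 0 with culture means and 386 and 948 without the fold limit. They were 35 and 33 with 36 arrays, 29 and 25 with the median over probe sets, 30 and 33 with genes of a mean of at least 6, 52 and 26 with arrays centred on their medians, 49 and 28 on quantile normalization (63.6% higher) and 36 and 34 with an intensity trend. With culture means, 15 of the 36 and 7 of the 34 had an unadjusted p under 0.05 in limma, against 5.75% of all genes. The called genes were chosen for a large difference on the same arrays, so these counts are descriptions. Leaving out 1 array at a time gave 34 to 46 higher and 28 to 37 lower. With all 39 arrays TA38 had 129 higher and 30 lower and TC38 had 9 higher and 30 lower. Without the fold limit TA38 had 1042 higher and 626 lower and TC38 had 737 higher and 732 lower. The 19 lower cell cycle genes (a count without the fold limit, whose alternatives were chosen after seeing the data) became 0 with 39 arrays, 0 with culture means and 11 on quantile normalization, and 14 to 19 with an array left out. The cause of these changes was not tested, apart from the fold limit's own. Excepting culture means and the dropped fold limit, 13 of the higher genes and 6 of the lower were called under every alternative that tested them, CALCB, GPM6B, ALDH1A3, NPR3, VCAM1 and PRRX2 among them. S100B and ARHGAP36 also were, but the filter on dim genes left them out. The median over probe sets could not change a gene with a single probe set. Of the genes named here only GPM6B and NPR3 had several. RCAN2, whose fall rests on 1 probe set, was also among the 6 lower genes.

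With the letter as a replicate block the counts were 36 and 34. The letters do not pair the arrays across the 3 cultures: same-letter deviations correlated at 0.21 to 0.39, so in every pair, between TB38 and TA38, but at 0.05 to 0.28 between TB38 and TC38 and at -0.45 to 0.33 between TA38 and TC38.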
